A study of Agaricus bisporus with 12 samples.

Results

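Of the 9502 genes with a read in any library, 32 carried no known function and were far higher at the first flush of mushrooms than at any other sampled stage. They were picked from the 4795 genes that have no entry in KEGG Orthology, a catalogue of gene functions, and whose best match in the nr protein database is a "hypothetical protein". A member needed an RPKM (uniquely placed reads scaled by gene length and by the library's total) of at least 5 in both first flush libraries, and the lower of these had to be at least 3 times the highest of the other 10 libraries. The first flush values and the highest of the other 10 libraries therefore chose the members. Every contrast with first flush below is thus a description without a test.

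RNA was read from colonised compost, not picked mushrooms, of the A15 strain of Agaricus bisporus, the button mushroom, which as a commercial heterokaryon carries both parental nuclei. Wheat straw and manure compost was spawned and kept for 16 days at 25 °C, the time of the spawning samples, and was then covered with peat and lime. There were 6 sampled stages with 2 libraries each, namely spawning, pinning (the appearance of mushroom primordia), the first and second flushes, and a time following either flush. No group carries a genetic change or an added agent, and the strain and the compost recipe were common to all.

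A flush is a wave of fruiting in which the compost mycelium feeds a crop of mushrooms that appear together. Fungal genomes hold many genes whose proteins resemble nothing of known role, so such genes can be described only by when and how strongly they are expressed. No role is given to any member below, because the annotation holds none.

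Each library held between 7.27 and 9.34 M (mega-reads) placed uniquely. Separate beds for the libraries of a stage are not stated, and p-values here therefore measure no more than the spread between these samples, possibly a technical one. In the library codes the first flush pair has a letter of its own. Whether the letter marks a batch is not stated, and if it does, batch and stage cannot be told apart. In bulk RNA, fewer cells of a type and less RNA per cell cannot be told apart either. Laccases, secreted oxidases of compost mycelium, were read in every library: the 14 genes with that description summed to between 4626 and 4959 RPKM at first flush and to between 474 and 27930 RPKM elsewhere. The 1 manganese peroxidase read between 27.2 and 38.3 RPKM at first flush and between 24.6 and 976 elsewhere. The 7 tyrosinases, pigment enzymes used here as fruiting body markers, summed to between 428 and 573 RPKM at first flush and to between 95.3 and 337 at the other stages. The 2 XCL-like lectins, also fruiting body markers, summed to between 70.2 and 85.6 RPKM at first flush and to between 116 and 1876 elsewhere. No gene was named an aegerolysin. None of these tyrosinases and lectins was listed at 0 in both libraries of a stage, and the part of mushroom tissue in the results was not tested.

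Across the members, the first flush mean ran from 6.71 to 5170 RPKM, with a median of 39.4. It was 100 RPKM or more in 6 members, between 10 and 100 in 22 and under 10 in 4. The ratio of the lower first flush library to the highest other library had a median of 4.05 and a maximum of 15.4. It lay between 3 and 4 in 16 members, between 4 and 6 in 9 and at 6 or above in 7.

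The members nearest to the threshold from inside were genes 196147, 114778, 113700, 191477 and 120048, with ratios of 3.01, 3.04, 3.09, 3.13 and 3.16. Just outside lay genes 140090, 211603, 193958, 188624 and 196220, with ratios of 2.997, 2.97, 2.94, 2.93 and 2.87. The limit thus separates genes of nearly the same ratio, among them gene 140090, with 1389 RPKM in its lower first flush library and 463 RPKM in its highest other one.

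The same rule, applied to all genes, was met by 44 (0.463%). It was met by 0.667% of the unannotated genes and by 0.255% of the other 4707. With another stage in the place of first flush, the rule found 22 unannotated genes for spawning, 6 for after first flush and 1 for pinning. It found none for second flush or after second flush. Over all genes, spawning had more than first flush, 65 against 44. After first flush had 9, pinning 3, second flush 1 and after second flush none.

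**Figure D1:**
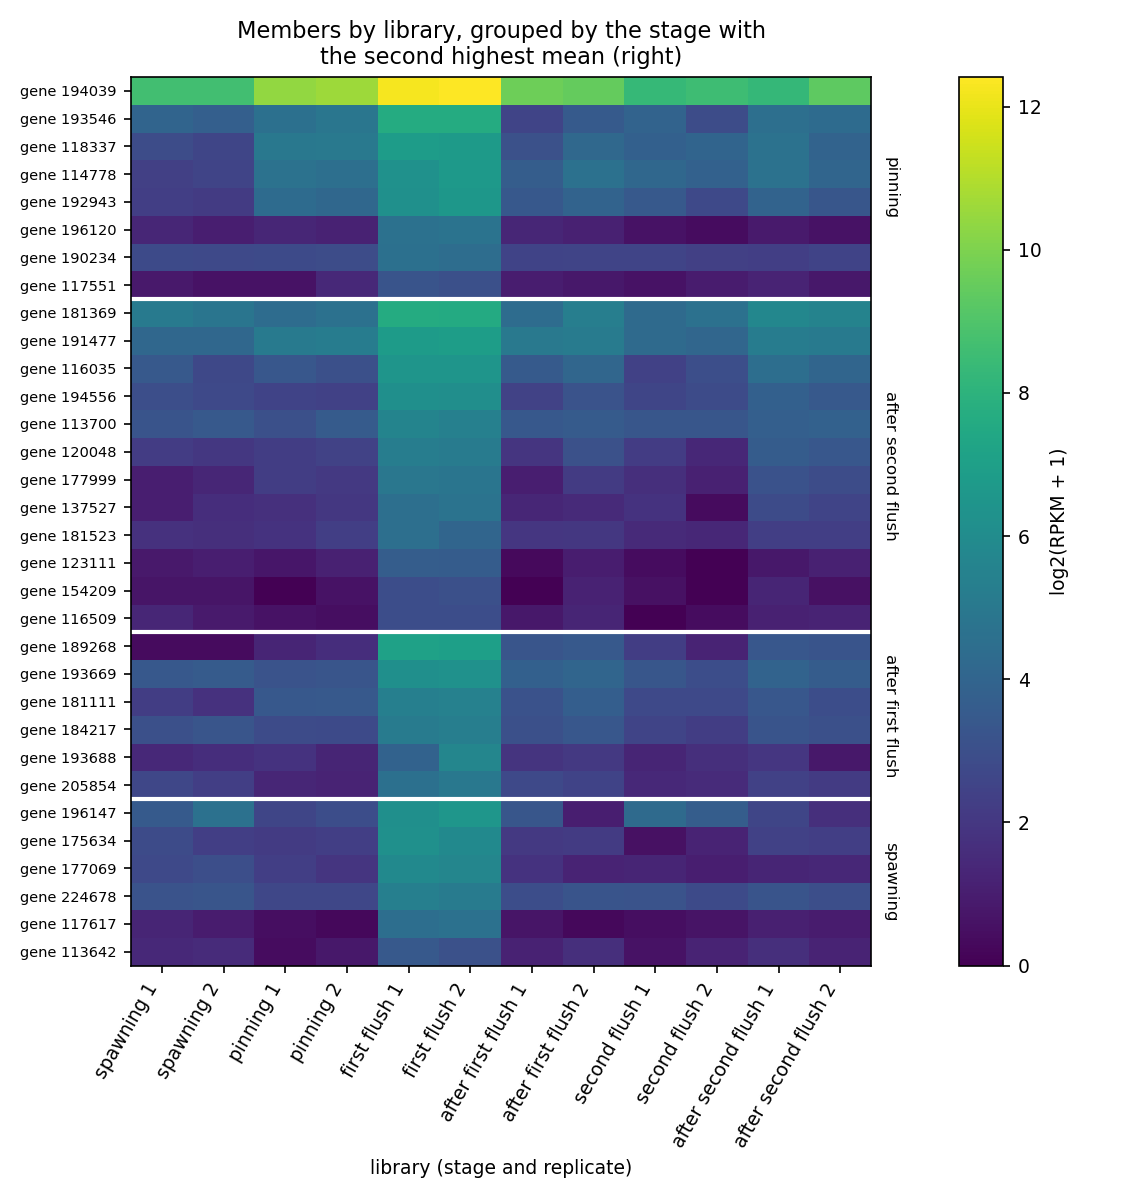
Heat map of log2(RPKM + 1) for the 32 members (rows) in the 12 libraries (columns), in blocks by the stage with the second highest mean, which is named on the right. The first flush columns are brightest in every row, as the rule requires, and gene 194039 is the brightest row throughout, with 302 RPKM in its lowest library.

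Gene 194039 stood apart by level. It read 408 and 399.6 RPKM at spawning, 1353 and 1524 at pinning, then 4876 and 5464 at first flush. It then read 826 and 717 RPKM following that flush, 316 and 377 at the second, and 302 and 643 following the second. First flush was highest in both libraries, pinning came next, followed by the after first flush libraries, without overlap between these stages. The libraries after second flush spanned those of spawning and second flush. It ranked 9 and 5 by RPKM among all genes in the first flush libraries, and between rank 57 and rank 471 elsewhere. The other 31 members together took 0.178% and 0.181% of the reads at first flush, and with gene 194039 the share was 0.65% and 0.709%. In the other 10 libraries all 32 took between 0.0499% and 0.174%.

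Genes 181369, 193546 and 189268 followed, with first flush means of 197 ± 4.9, 196 ± 0.43 and 132 ± 9.2 RPKM (SD, n = 2). Gene 191477 had 116 ± 4.6 and gene 118337 had 111 ± 2.9 RPKM. The next in order, from gene 114778 with 90.2 ± 20 RPKM through genes 116035, 192943, 196147, 193669, 194556, 175634 and 177069 to gene 113700 with 44.9 ± 4.0 RPKM, make up the 15 most abundant members. Neighbours in this order often lie within each other's spread.

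The 5 members with the largest ratio ranged widely in level. Gene 196120 read 23.9 and 25.6 RPKM at first flush and between 0.333 and 1.55 in the other libraries, a ratio of 15.4. Gene 117617 read 21.6 and 23.6 RPKM at first flush and between 0.195 and 1.42 elsewhere, a ratio of 15.2. Gene 189268 had a ratio of 12.5, gene 175634 of 9.52 and gene 123111 of 9.29. Gene 123111 was listed at 0 in second flush replicate 2, where 3 reads, the limit that a count of 0 allows, would be 0.321 RPKM. In all, 3 members (genes 123111, 116509 and 154209) were at 0 in at least 1 library.

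The first flush libraries differed little from each other for most members: the higher was a median of 1.11 times the lower, against 1.13 over the 3321 unannotated genes with at least 5 RPKM in both. Gene 193688 was the exception, with 14.1 and 51.7 RPKM, a ratio of 3.67, and the next largest ratio was 1.42. Reads covered a median of 98.0% and 96.9% of a member's length in these libraries, and 90% or more in both for 24 members. Coverage was lowest for gene 117551 (57.0% in 1 library), a weakly read member and the single one whose RefSeq model overlaps a neighbouring gene.

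No member had a gene ontology term, against 6.92% of all unannotated genes and 9.03% of the 3321 with at least 5 RPKM in both first flush libraries. In a set as small as the members such shares amount to few genes, and the difference was not tested. The best nr match was a protein of the H97 strain of A. bisporus for 29 members and of strain JB137-S8 for 3. Gene length ran from 385 to 2541 bases with a median of 985, against 1029 for all unannotated genes, 1138 for those 3321 and 1248 for all genes.

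Outside first flush the members did not share 1 profile. The second highest mean fell after second flush in 12 members, at pinning in 8, after first flush in 6 and at spawning in 6, and never at second flush. Both libraries of that stage lay above the other 8 in 7, 4, 0 and 1 of these members, in the same order. For the rest, the stage that came second was not set apart from the others. The lowest mean was at second flush in 16 members and at spawning in 8. As a share of its own first flush mean, the median member stood at 8.83% at spawning, 11.4% at pinning and 14.2% after first flush. The median share was 7.64% at second flush and 17.7% after it. All these figures use RPKM without further scaling. TMM factors, which adjust library totals, were 0.867 and 0.842 at spawning and 1.10 and 1.07 at first flush. Scaling by them would raise the spawning shares, and the profile was not recomputed that way.

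To compare the stages outside first flush, edgeR's quasi-likelihood model was fitted to the 10 libraries without first flush. Calls were made below 0.05 after Benjamini-Hochberg adjustment across the 8772 genes tested. The rule used the highest of these 10 values as an upper limit but did not order them. A gene about as high at second flush, or any other stage, as at first flush could not become a member. How far this limit bears on the steps below was not tested. Of the 32 members, 28 had enough reads for the test. Genes 196120, 117617, 154209 and 116509 had not. None of the 28 passed the read minimum through a single stage, and 19 were above it in all 10 libraries. Over the 4 steps 21 of the 28 were called at least once and 7 were not, where 70.8% of all genes tested were called at least once. Each stage between the ends serves in both steps around it, so neighbouring steps are not independent. The leave-one-out counts below are refits in which a stage left with 1 library is assumed to vary like the others.

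**Figure D2:**
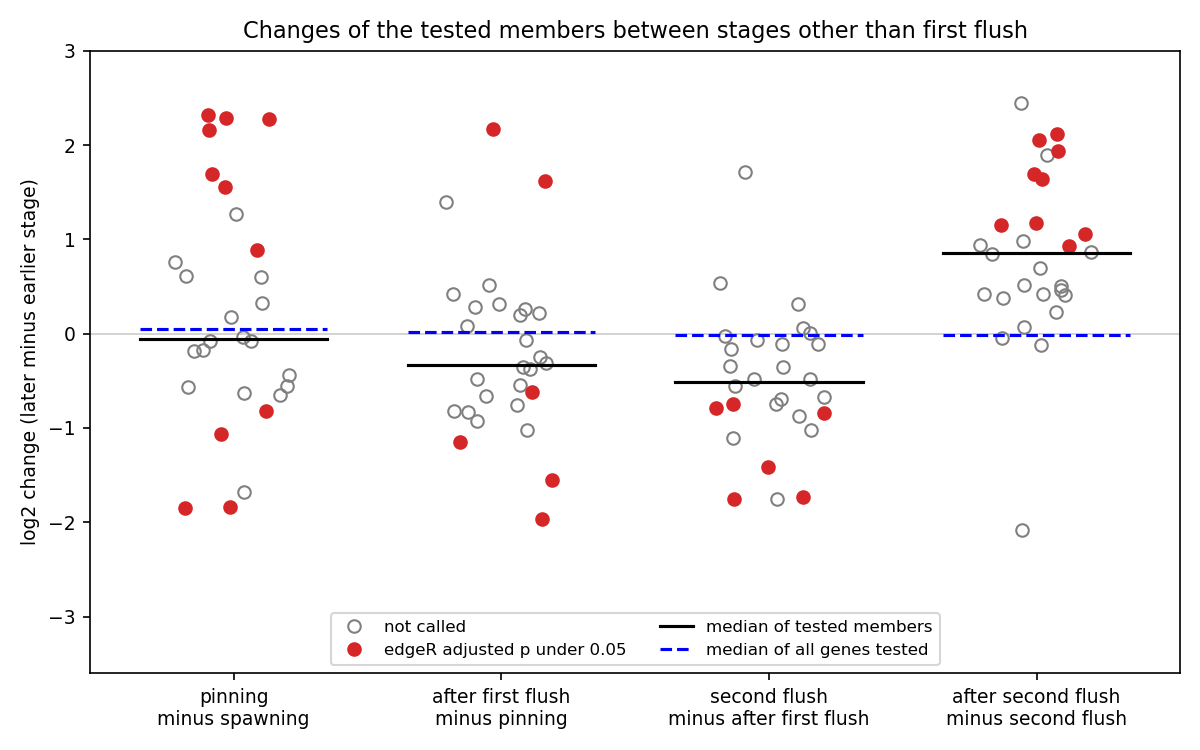
Log2 change of the 28 tested members (points) in 4 steps between stages other than first flush, each as later minus earlier stage; filled points passed the edgeR test, the solid line is the members' median and the dashed line the median of all genes tested. In the last step 25 of 28 points lie above the dashed line, and the 9 filled points are all above 0.

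From second flush to after second flush, 9 of 28 members rose and none fell, while at an unadjusted p under 0.05 16 were higher and 1 lower, and DESeq2 called 1 lower. Of all genes tested, 6.58% were called in this step, 4.32% as higher and 2.26% as lower, and of the other unannotated genes 3.03% rose. At an unadjusted p under 0.05, 12.2% of all genes were higher and 10.9% lower, and DESeq2 called 3.97% of all genes lower. The members' median log2 change was 0.86, against −0.01 for all genes. Both libraries after second flush were above both second flush libraries in 20 of the 32 members, against 27.9% of all genes, and both were below in 1 (gene 196147), against 21.7%.

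The riser with the lowest adjusted p was gene 191477, with 18.8 and 16.1 RPKM at second flush and 35.9 and 32.6 after it (log2 change 0.92, SE 0.13, edgeR adjusted p = 0.0043). Its libraries did not overlap, and it was the one riser called in each of the 10 fits that left out a library. Gene 175634 read 0.483 and 1.32 RPKM, then 4.22 and 4.01 (2.12, SE 0.41, edgeR adjusted p = 0.015). Gene 177999 read 2.14 and 1.19 RPKM, then 7.75 and 6.46 (2.05, SE 0.44, edgeR adjusted p = 0.026), and was not called without any 1 of 8 libraries, those of after first flush excepted. Gene 120048 read 3.62 and 1.58 RPKM, then 11.2 and 9.29 (1.93, SE 0.44, edgeR adjusted p = 0.032, but 0.052 with the replicate number as a block), a call lost in 7 of the 10 fits with a library left out. These 3 showed the largest rises among called members, and in each the second flush libraries lay below those after second flush. The other risers were genes 116035, 181369, 181523, 189268 and 205854, with log2 changes from 1.06 to 1.70.

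The number of risers depended on single libraries. It was larger without either library from after first flush, and smaller in the other fits, which follow. It was 4 without either spawning library, without either pinning library or without second flush replicate 1, and 3 without second flush replicate 2 or after second flush replicate 2. Leaving out after second flush replicate 1 left 1 riser. The share of all genes that rose moved too, to between 0.961% and 2.78% in these fits.

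From after first flush to second flush, 6 of 28 members fell and none rose, where 10.3% of all genes tested fell and 10.8% rose (21.1% called). Both second flush libraries were below both earlier ones in 14 of the 32 members, against 36.8% of all genes, and above in 1, against 18.9%. At an unadjusted p under 0.05, 10 of the 28 members were lower and none higher, where 18% of all genes were lower and 18.4% higher. DESeq2 called none of the members higher, against 10.6% of all genes. The members' median log2 change was −0.52, against −0.01 for all genes. On unscaled RPKM the median of all genes moves by −0.11, and the share of risers among called genes goes from 51.1% to 31.2%; relative to that median, 5 of 28 members lay above it in edgeR's fit and 7 of 32 in limma's fit on RPKM.

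Gene 175634 fell most among called members, from 3.24 and 3.50 RPKM to 0.483 and 1.32 (log2 change −1.75, SE 0.42, edgeR adjusted p = 0.017; 0.082 without second flush replicate 1). Gene 189268 went from 8.77 and 10.1 RPKM to 3.81 and 1.39 (−1.73, SE 0.38, edgeR adjusted p = 0.014; 0.068 without second flush replicate 2). Gene 205854 went from 5.69 and 4.73 RPKM to 1.71 and 1.86 (−1.41, SE 0.25, edgeR adjusted p = 0.0058). Genes 191477, 184217 and 193669 were the other fallers. In each of the 3 with values given, the second flush libraries lay below both libraries from after first flush. Of the 6 fallers, 4 (genes 175634, 189268, 191477 and 205854) were also among the 9 risers of the step that follows, which shares the second flush libraries. The after first flush libraries were the least correlated (Pearson r of log2 CPM across genes 0.974, against 0.983 to 0.992). Without its replicate 1, 10 members fell and 1 rose (gene 196147), where 8.83% of all genes fell and 8.82% rose. Without its replicate 2, 4 fell and 1 rose (gene 118337), against 10.7% and 12.4% of all genes. Without second flush replicate 2, 3 fell, against 3.51% of all genes.

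**Figure D3:**
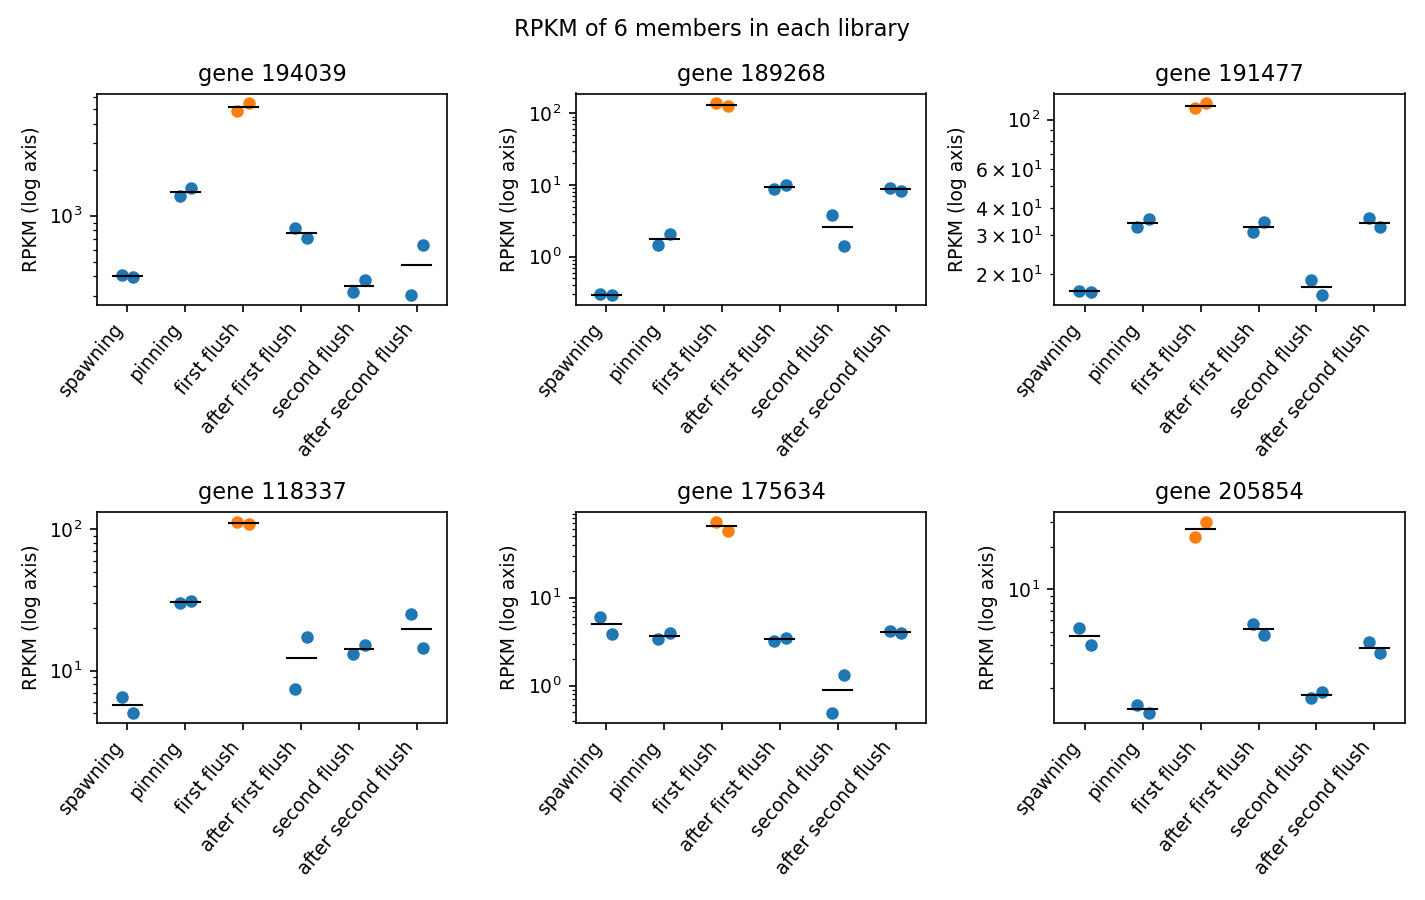
RPKM (log axis) of 6 members in each library: points are libraries, black bars stage means, and orange marks first flush. In unscaled RPKM, gene 191477 takes about the same level at pinning, after first flush and after second flush (31.2 to 35.9 RPKM) and a lower one at spawning and second flush (16.1 to 18.8 RPKM). With TMM factors its log2 change from pinning to after first flush was −0.31 (SE 0.13, edgeR adjusted p = 0.097). Genes 194039 and 118337 have their second highest level at pinning.

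From spawning to pinning, 7 of 28 members rose and 4 fell, where 28.9% of all genes rose and 25% fell, 53.9% together. Without a test, both pinning libraries were above both spawning libraries in 12 of the 32 members (46.8% of all genes) and below in 12 (33.3% of all genes). Gene 118337 read 6.47 and 4.98 RPKM at spawning and 30.2 and 31.2 at pinning (log2 change 2.29, SE 0.39, edgeR adjusted p = 0.00095). Gene 114778 read 4.08 and 4.76 RPKM, then 24.9 and 22.2 (2.28, SE 0.36, edgeR adjusted p = 0.00052). Gene 189268 had 2 reads over the spawning libraries and 14 over those of pinning, a ratio of 5.88 (exact 95% interval 1.35 to 53.3, counting error only), with a fitted log2 change of 2.32 (SE 0.81, edgeR adjusted p = 0.033) that lost its call without any 1 of the 4 libraries and by DESeq2 (adjusted p = 0.086). Genes 181111, 191477, 192943 and 194039 also rose. In every riser the pinning libraries lay above both spawning libraries.

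Gene 205854 fell from 5.30 and 4.01 RPKM at spawning to 1.52 and 1.32 at pinning (log2 change −1.84, SE 0.26, edgeR adjusted p = 0.00024). Gene 113642 went from 1.73 and 1.90 RPKM to 0.349 and 0.741 (−1.85, SE 0.65, edgeR adjusted p = 0.035), not called once any 1 of the 4 libraries was left out nor by DESeq2 (0.090). Gene 177069 went from 5.72 and 6.94 RPKM to 3.87 and 2.75 (−1.06, SE 0.35, edgeR adjusted p = 0.026), not called without either spawning library or pinning replicate 2 nor by DESeq2 (0.099). Gene 224678 was the remaining faller. The count of fallers was 2 without either spawning library or without pinning replicate 2, where between 18% and 19.1% of all genes fell. It was 7 without either library from after first flush, where 27.3% of all genes fell.

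From pinning to after first flush, the stages on either side of first flush, 2 members rose and 4 fell, against 15.7% and 15.6% of all genes (31.3% called). Both later libraries were above both pinning libraries in 9 of the 32 members, against 49.5% of all genes, and below in 7, against 17.3%. Gene 189268 read 1.44 and 2.05 RPKM at pinning and 8.77 and 10.1 after first flush (log2 change 2.17, SE 0.42, edgeR adjusted p = 0.0041; 0.052 without pinning replicate 1). Gene 205854 read 1.52 and 1.32 RPKM, then 5.69 and 4.73 (1.62, SE 0.26, edgeR adjusted p = 0.0017). Gene 193546 fell from 22.9 and 28.2 RPKM to 4.84 and 10.6 (−1.97, SE 0.39, edgeR adjusted p = 0.0052). Gene 118337 fell to 7.45 and 17.3 RPKM (−1.55, SE 0.35, edgeR adjusted p = 0.010; 0.056 and 0.051 without pinning replicate 1 and 2). Gene 194039 fell to 826 and 717 RPKM (−1.15, SE 0.32, edgeR adjusted p = 0.026), and likewise lost its call when any of these 4 libraries was dropped. Gene 190234 was the remaining faller. Leaving out pinning replicate 1 left 1 riser and 1 faller, with 5.08% of all genes rising and 6.51% falling. Leaving out pinning replicate 2 left 2 risers and 1 faller, with 7.29% and 8.47% of all genes. On unscaled RPKM the median of all genes moves by 0.22 here, and by 0.11 from spawning to pinning.

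Taken gene by gene, 2 members were called in all 4 steps, and their profiles differ at the start. Gene 205854 alternated: low at pinning and second flush, higher at spawning, after first flush and after second flush. Gene 189268 was near 0 at spawning, with 0.298 and 0.292 RPKM, rose at pinning and again after first flush, fell at second flush and rose after it to 9.22 and 8.24 RPKM. Its spawning values rest on 2 reads, and no call of gene 189268 held in every fit with a library left out. Gene 191477 was called in 3 steps.

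By their order in the RefSeq table of the H97 assembly, some members lie close together. All 32 matched a locus tag there. Genes 189268 and 113700 are direct neighbours, genes 175634 and 113642 lie 4 genes apart, and genes 192943 and 118337 lie 5 apart. A read was found for 63 genes that directly neighbour a member. Of these, 20 (31.7%) were higher in the lower first flush library than in any of the other 10. The same held for 19.5% of the 9097 matched genes read in both first flush libraries. Some of the neighbours were at 0 at first flush, such as gene 142081, so the shares have unlike bases. These 63 include members 189268 and 113700, which were chosen for that property.

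The stretch around genes 192943 and 118337 was singled out after its values were seen. From 5 genes before the first to 5 after the second there are 14 genes besides the members, and 9 of them were higher in the lower first flush library than in any other stage's library. That ratio exceeded 2 in 4 of the 14. Over all genes read in both first flush libraries it exceeded 1 in 19.6% and 2 in 1.89%, which is no test, as the stretch was picked for its values. Around genes 189268 and 113700, 5 of the 10 other genes had a ratio above 1 and 2 had one above 2. Around genes 175634 and 113642, 3 of the 13 other genes had a ratio above 1 and none had one above 2. Gene 192949, the direct neighbour of gene 118337 and without a description, read 1170 RPKM in its lower first flush library and 430.2 in its highest other one, a ratio of 2.72. On the other side gene 192951 had a ratio of 2.17 and gene 70125, the next one, of 2.38. As only uniquely placed reads were counted, values of near-identical copies would be uncertain, and similarity between these genes was not analysed here.

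**Figure D4:**
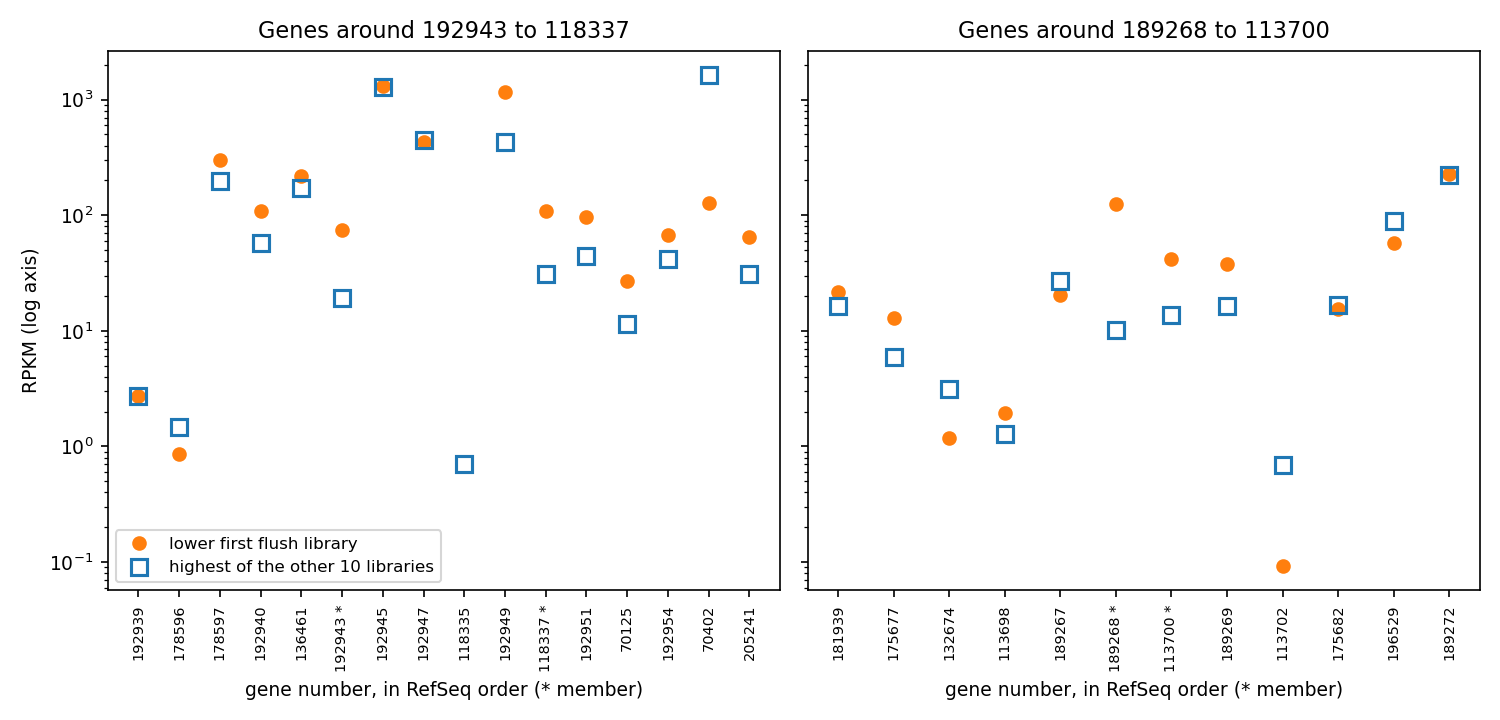
RPKM (log axis) in the lower first flush library (filled circles) and in the highest of the other 10 libraries (open squares) for genes in RefSeq order around 2 member pairs; members carry an asterisk. On the left, circles lie above squares in 11 of 16 genes, with gene 118335 listed at 0 in a first flush library and so without a circle; on the right they do so in 7 of 12.

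Among genes with an annotation, 12 met the same RPKM rule. Gene 195861, whose KEGG text names a sterol glucosyltransferase and sugar transporters at once, was the most abundant at 1243 ± 48 RPKM at first flush. It was followed by gene 134948, annotated as the metalloprotease pappalysin-1 (745 ± 101), gene 188701, a peptidase by its enzyme class (252 ± 87), gene 139599, annotated as the membrane-remodelling GTPase dynamin (173 ± 22), and gene 149875, an aspartic protease of the cathepsin D type (158 ± 69). Next came gene 195916, an endo-1,3(4)-beta-glucanase, an enzyme that splits beta-glucan (156 ± 75), gene 193568, annotated as an aurora kinase (98.8 ± 2.4), laccase-5 (gene 135711, 90.8 ± 24), gene 194914, matched to folate synthesis enzymes (55.5 ± 23), and laccase-11 (gene 209229, 49.3 ± 1.3 RPKM).

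By keyword lists, the rule was met by 2 of 21 laccases and peroxidases (9.52%) and 3 of 157 proteases and peptidases (1.91%). It was met by 2 of 85 cytochromes P450 and glutathione transferases (2.35%). For transporters it was 1 of 194 (0.515%), near the 0.463% of all genes. None met it on the lists for the plant wall (83 genes), fungal wall (32), hydrophobins (7), ribosomal proteins (93) and respiratory chain (71). At the share over all genes, most lists of these sizes would hold none. The keywords are rough. They put beta-glucanase 195916 in neither wall list, since its annotation reads 1,3(4). The plant wall list also took in enzymes named for other substrates. Examples are gene 181939, a mannosyl-oligosaccharide alpha-1,2-mannosidase, and gene 198709, a glucan 1,3-beta-glucosidase. The members themselves belong to no such list.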

How the data were processed

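RNA-seq of 12 compost libraries was analysed. Per the file headers, a table deposited for each library lists every gene's unique-read count, its length, the percent of it covered by reads, its RPKM and annotation from KEGG, GO and nr. The deposited counts sum to the total in each header, and the deposited RPKM equals count over length over that total. Aligner, settings, genome build and strandedness: not given in the sources used here. A gene not listed in a library was taken as 0, the lowest listed count being 1. Of 9502 gene numbers, 9440 matched locus tags of RefSeq assembly Agabi_varbisH97_2, used for gene order and not for coordinates.

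The 10 libraries other than first flush were fitted with edgeR 4.0.16 in R 4.3.3 (filterByExpr with minimum count 10 and total 15, TMM factors 0.847 to 1.13, robust quasi-likelihood, a term per stage, 5 residual degrees of freedom). P-values were adjusted by Benjamini-Hochberg over 8772 genes. The SE is the log2 change over the root of F. First flush was left out because the rule required it to be highest. The rule also capped the values of the libraries that were fitted. The fit was tested on simulated data. Alternatives used DESeq2 1.42.0, limma 3.58.1 on log2(RPKM + 1), other scalings and filters, all 12 libraries, a replicate block and each library left out. Floors of 3 reads and intervals cover counting error only.

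The members and lists were chosen with earlier results of these data known. Named are the 15 members highest at first flush, the 5 with the largest ratio, 5 on each side of the threshold, up to 3 largest called rises and falls per step, 10 annotated genes under the same rule, and members close in gene order. Other genes singled out (such as 193688, 117551 and those beside 118337) and further called members were named after their values were seen. Protein and promoter properties were not analysed here.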

Additional observations from a re-analysis of the deposited data

How the results depend on the processing

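With a fold of 2 in place of 3 the rule found 96 members and with a fold of 4 it found 16. A minimum of 2 or 10 RPKM gave 34 and 28, TMM-scaled RPKM 26, and leaving out 1 of the 12 libraries between 32 and 45. Counts of called members stayed within 1.5 times those reported under all 12 libraries, DESeq2 size factors, no filter, DESeq2, limma on RPKM and the replicate block, with 1 exception: DESeq2 called 1 member (gene 196147) lower after second flush, where edgeR called 0. With 1 library left out, members called ranged from 8 to 16 from spawning to pinning (6 to 9 higher, 2 to 7 lower), from 2 to 7 from pinning to after first flush (1 to 3 higher, 1 to 5 lower), from 3 to 11 from after first flush to second flush (0 to 1 higher, 3 to 10 lower) and from 1 to 13 from second flush to after second flush (1 to 12 higher, 0 to 1 lower). The cause was not tested. Of the members called, 8 of 11, 2 of 6, 2 of 6 and 1 of 9 in these steps were called in every such fit. Differences between replicates 1 and 2 had correlations between stages from −0.24 to 0.21, with first flush left out. Whether the numbers pair libraries across stages is not stated, and these correlations cannot settle it. With the replicate block 11, 5, 7 and 8 members were called, against 11, 6, 6 and 9. Low reads limit what can be seen outside first flush: the median member had between 31.5 and 77 reads per library there, and 4 members were not tested.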
